A study of Rattus norvegicus with 6 samples.

Results

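The genes described here encode the neurofilament and axonal cytoskeleton of neurons, and there are 10 of them among the 30957 rows of the deposited gene table. They were chosen by symbol, as Nefl, Nefm, Nefh and Ina for intermediate filaments, Map1b, Map2 and Mapt for microtubule-associated proteins, Gap43 and Stmn2 for growth cone proteins, and Tubb3 for neuronal tubulin. All 10 symbols matched 1 row each, and all 10 passed the filter on low counts that left 14908 genes for testing. The data are RNA-seq libraries of spinal cord from female Wistar rats with bone cancer pain (BCP), 3 from BCP rats and 3 from sham-operated rats. In BCP rats, living Walker 256 cells, a rat mammary carcinoma line, had been placed in the marrow cavity of the left tibia. Sham-operated rats received heat-killed cells of the same line at the same site, so both groups carried the injection and there was no untouched group. Tissue was taken on day 14 from the ipsilateral side of the lumbar enlargement after the meninges had been removed, and it holds dorsal horn, ventral horn and white matter together.

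Neurofilaments are the main intermediate filaments of large axons. They are built from a light, a medium and a heavy subunit together with alpha-internexin, and their amount sets the calibre of the axon. Microtubules of neurons are made from tubulin dimers, and microtubule-associated proteins hold them apart and stabilize them, Map2 mainly in dendrites, Mapt in axons and Map1b in growing and adult axons. Gap43 and Stmn2 belong to the growth cone and are best known for their rise in neurons whose axons regrow after injury. In the spinal cord the neuronal part of these transcripts comes mainly from neurons whose cell bodies lie in the cord, such as motor neurons and interneurons. The cell bodies of primary afferents lie outside it in the dorsal root ganglia. Which cells of the cord held these transcripts was not measured.

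The 6 libraries held between 11779485 and 15004290 counts over genes, with BCP 1 the shallowest and sham 3 the deepest. The labels call the libraries replicates of a group and do not say whether each came from a single rat, so p-values measure the spread between these libraries. Gene levels are given in CPM, which are counts relative to the depth of the library after scaling by the TMM factors of edgeR, or in FPKM, which also divides by transcript length and is the only scale on which genes are compared with each other. A gene was called lower or higher in BCP when its Benjamini-Hochberg adjusted p in edgeR's quasi-likelihood test, adjusted over all 14908 genes, was under 0.05.

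Transcripts of 9 of the 10 axonal cytoskeleton genes were lower in the spinal cord of BCP rats by a small margin. Of the 10 genes, 9 fell in edgeR's quasi-likelihood test, against 12.1% of all tested genes called lower, and Gap43 was the one gene not called. Highly expressed genes were called lower more often, so that among the 4143 genes with at least the mean log2 CPM of Gap43 the share was 27.7%. Gap43 had the lowest mean log2 CPM of the 10 genes, 5.79, while the 9 called genes lay between 8.70 (Ina) and 12.4 (Map1b). The share among genes at the level of these 9 was not counted. No member was called higher, against 15.8% of all tested genes, and none changed by 2-fold, a size reached by 0.107% of all tested genes in the lower and 6.35% in the higher direction. The median log2 fold change over the 10 genes was -0.20, beside -0.01 over all tested genes. For the 9 genes that fell, the level decreased by 11.8% (Nefl) at the least, and it decreased by 19.2% (Nefm) at the most. In CPM, all 3 BCP libraries lay below all 3 sham libraries for 9 of the 10 genes, an arrangement found in 19.8% of all tested genes. The reverse arrangement, found in 21.7% of all tested genes, held for none of the 10. In FPKM, which was not scaled by TMM, the BCP libraries were below the sham libraries for 7 of the 10 genes. The share of all tested genes with this arrangement in FPKM was not counted. In a bulk sample, fewer neurons, less of these transcripts per neuron and a larger share of RNA from other cells cannot be told apart. The share of calls that were higher over all genes was 56.6% with TMM scaling, 68.0% with scaling by library size alone and 47.1% with upper quartile scaling, which turned the majority to lower. It was 71.7% with limma on log2(FPKM + 1), where the test and the unit changed as well. The balance of directions over all genes thus moved with the scaling, while the log2 fold changes of the 10 genes were negative under every setting tried.

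**Figure D1:**
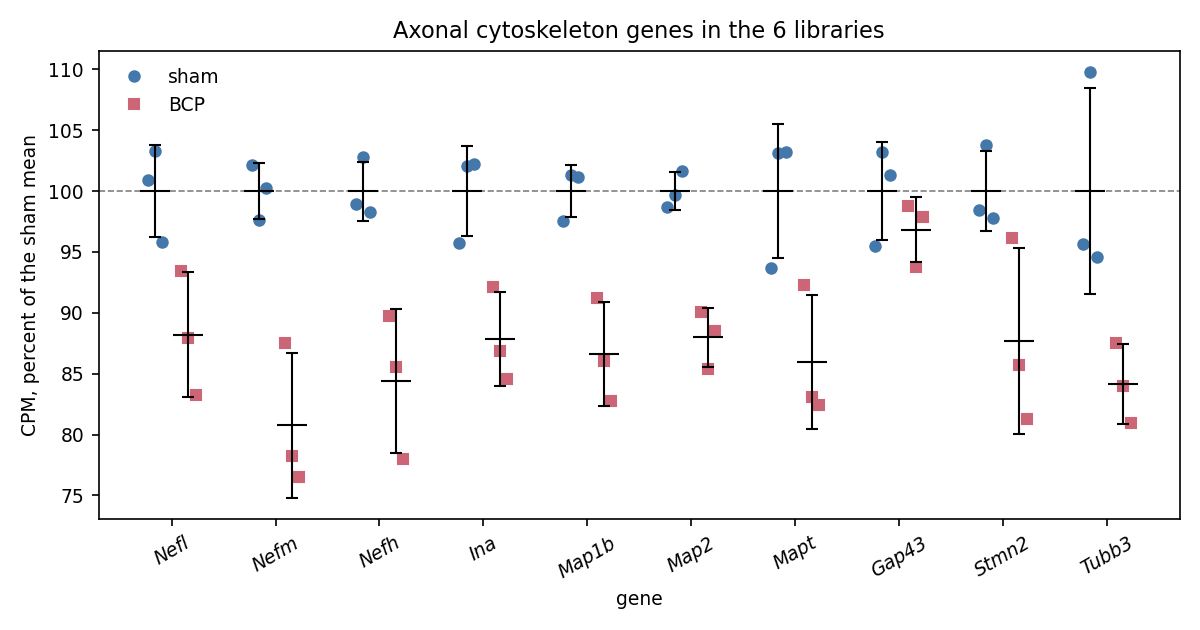
CPM of the 10 axonal cytoskeleton genes in each library, on the y axis as a percent of the gene's mean in sham-operated rats; circles are the 3 sham libraries, squares the 3 BCP libraries, and black bars the mean ± SD. The BCP libraries lie below the sham libraries for 9 genes, and for Gap43 the groups overlap.

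Promoter sequences from RefSeq (build GRCr8) were matched for Ina, Map1b, Map2 and Tubb3, 4 of the 10 genes. The 250 bases upstream are shown for the 3 of them that carry one of the searched core promoter motifs. Capitals mark the GC box GGGCGG, on either strand, and the TATA box TATAAA.
Tubb3, chr19:68365437-68365686, plus strand: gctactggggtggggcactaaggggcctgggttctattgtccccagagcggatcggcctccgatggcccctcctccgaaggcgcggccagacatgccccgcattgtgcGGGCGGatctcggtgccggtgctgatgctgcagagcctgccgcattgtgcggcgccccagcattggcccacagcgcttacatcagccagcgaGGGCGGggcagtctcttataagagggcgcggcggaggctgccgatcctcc
Ina, chr1:255837879-255838128, plus strand: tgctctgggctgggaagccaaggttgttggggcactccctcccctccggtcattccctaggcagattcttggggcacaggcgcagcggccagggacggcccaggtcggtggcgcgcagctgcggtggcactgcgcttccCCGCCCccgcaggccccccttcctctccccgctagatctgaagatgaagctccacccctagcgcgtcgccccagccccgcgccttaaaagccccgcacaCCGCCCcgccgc
Map1b, chr2:32644472-32644721, minus strand: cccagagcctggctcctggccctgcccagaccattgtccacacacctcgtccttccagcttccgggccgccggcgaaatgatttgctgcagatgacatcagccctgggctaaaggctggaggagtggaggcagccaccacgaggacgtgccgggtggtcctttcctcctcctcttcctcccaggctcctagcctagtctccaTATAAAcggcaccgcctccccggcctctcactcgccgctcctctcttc
Tubb3 and Ina each held 2 GC boxes, a motif found in 30.5% of the 33469 rat promoters searched over the same length, and Map1b held none. Map1b held the TATA box 48 bases before the start, and 12.9% of promoters did. Tubb3 also held CCAAT, which 34.0% of promoters held. The cAMP response element TGACGTCA, which 1.59% of promoters held, was in none of the 4. GC content was 70.8% for Ina, 68.0% for Tubb3, 63.6% for Map1b and 32.0% for Map2, beside a median of 51.2% over all promoters. The window of Map2 held none of the motifs searched, and a match or its lack describes these letters only.

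Among the neurofilament subunits, the medium subunit Nefm showed the largest fall of the 10 genes. Nefm lies on chromosome 15 at 44855310 to 44860604 (Rnor_6.0, the build of the gene table). Its level was 2240, 2141 and 2198 CPM in sham libraries 1 to 3 and 1919, 1715 and 1678 CPM in BCP libraries 1 to 3. The groups did not overlap, and the highest BCP library stayed well under the lowest sham library. The log2 fold change was -0.31 (SE 0.047, 95% interval -0.41 to -0.21, adjusted p = 5.05e-05 in edgeR's quasi-likelihood test). Of all tested genes, 9.09% had a lower log2 fold change than Nefm.

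Nefl, the light subunit on which filament assembly depends, lies on the same chromosome as Nefm, at 44799334 to 44804574. Its counts gave 3658, 3745 and 3476 CPM in the sham libraries, against 3388, 3190 and 3017 CPM in BCP. Sham 3 and BCP 1 came close to each other, but the groups did not overlap. The log2 fold change of Nefl was -0.18 (SE 0.044, adjusted p = 0.00402 in edgeR's quasi-likelihood test). The call was lost in the edgeR exact test (adjusted p = 0.0683) and in limma on log2(FPKM + 1) (adjusted p = 0.083).

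Nefh, the heavy subunit with the long side arm that is phosphorylated in axons, lies on chromosome 14 at 85181572 to 85191557. Its level was 2043, 2122 and 2029 CPM in the sham libraries, against 1852, 1766 and 1611 CPM in BCP. All BCP libraries were lower, and BCP 3 was the lowest. Nefh fell by 0.24 on the log2 scale (SE 0.046, adjusted p = 0.00049 in edgeR's quasi-likelihood test).

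Ina, alpha-internexin, is the neuronal intermediate filament protein that appears early in development and stays in mature filaments. The gene lies on chromosome 1 at 266781617 to 266794431, and its level was 423, 451 and 452 CPM in the sham libraries, against 407, 384 and 374 CPM in BCP. Sham 1 and BCP 1 were the nearest pair and did not overlap. The log2 fold change was -0.19 (SE 0.046, adjusted p = 0.0041 in edgeR's quasi-likelihood test), and in limma on log2(FPKM + 1) the call was lost (adjusted p = 0.0592).

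The proportions of the subunits were then compared within each library, which does not depend on how the library was scaled. The count ratio of Nefm to Nefl was 0.612, 0.572 and 0.633 in the sham libraries, against 0.567, 0.538 and 0.556 in BCP. Relative to Nefl, Nefm was thus lower in every BCP library than in any sham library, by 0.13 on the log2 scale (sham -0.73 ± 0.075, BCP -0.85 ± 0.038, SD, n = 3 each; exact permutation test, two-sided, p = 0.1, 0.15 after adjustment over 3 ratios). Nefh relative to Nefl was also lower without overlap, at -0.81 ± 0.032 in sham and -0.88 ± 0.027 in BCP (SD, n = 3 each; exact permutation p = 0.1, adjusted 0.15). The smallest p that 3 against 3 libraries can give is 0.1, so neither ratio could pass the threshold. Ina relative to Nefl differed by less than the spread between replicates, with a difference of -0.0053 on the log2 scale (exact permutation p = 0.8). In FPKM, Nefl made up 43.2 to 45.0% of the 4 filament genes together in sham libraries and 45.5 to 46.0% in BCP libraries, while Nefm made up 28.5 to 30.3% and 27.4 to 28.6%. Nefh held 21.8 to 22.5% in sham and 21.6 to 22.5% in BCP libraries, and Ina 3.79 to 4.16% and 4.04 to 4.21%.

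**Figure D2:**
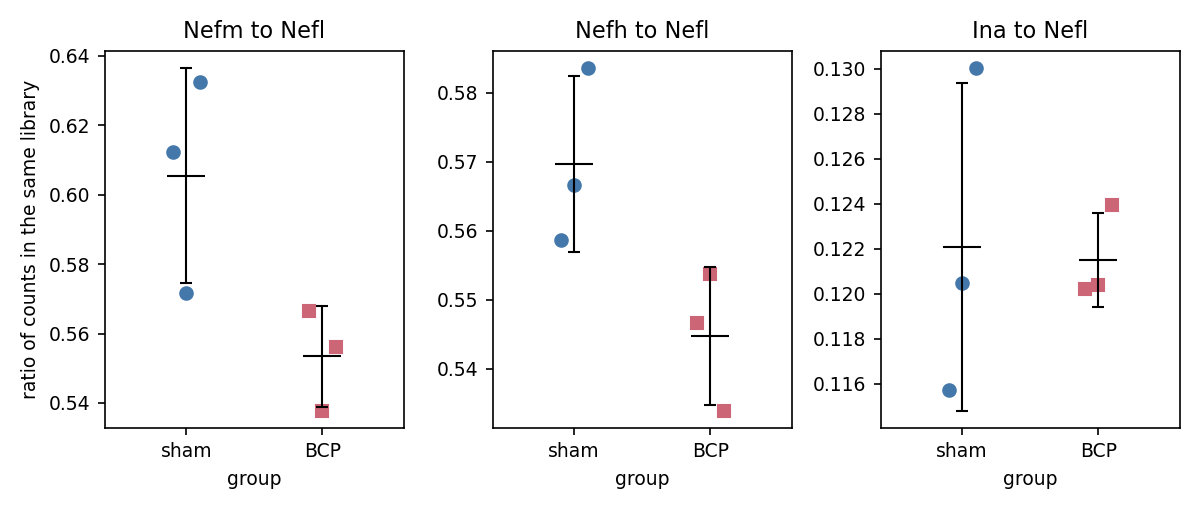
Ratio of the counts of Nefm, Nefh and Ina to those of Nefl in the same library, not corrected for transcript length and on y axes that do not start at 0; circles are the 3 sham libraries, squares the 3 BCP libraries, and black bars the mean ± SD. For Nefm and Nefh all BCP libraries lie below all sham libraries, and for Ina the groups overlap.

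The microtubule-associated proteins fell by similar amounts. Map1b, which has the most counts of the 10 genes, lies on chromosome 2 at 29675391 to 29768750 and reached 5800, 6027 and 6019 CPM in the sham libraries, against 5424, 5116 and 4922 CPM in BCP. The groups did not overlap, and the log2 fold change was -0.21 (SE 0.040, adjusted p = 0.000569 in edgeR's quasi-likelihood test).

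Map2, the dendritic member, lies on chromosome 9 at 73378057 to 73459371. It was measured at 1539, 1555 and 1586 CPM in the sham libraries, against 1405, 1332 and 1381 CPM in BCP. Its replicates were the closest of the 10 genes, with a coefficient of variation of 1.54% among sham libraries. Map2 fell by 0.18 on the log2 scale (SE 0.039, adjusted p = 0.00115 in edgeR's quasi-likelihood test).

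Mapt encodes tau and lies on chromosome 10 at 92289002 to 92386509. The sham libraries held 624, 687 and 687 CPM and the BCP libraries 615, 553 and 549 CPM. Sham 1 and BCP 1 were almost equal in CPM, and in FPKM they crossed, at 82.6 in sham 1 and 83.3 in BCP 1. The log2 fold change was -0.22 (SE 0.051, adjusted p = 0.00304 in edgeR's quasi-likelihood test), and the call was lost in limma on log2(FPKM + 1) (adjusted p = 0.0601).

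Tubb3, the beta-tubulin found in neurons, lies on chromosome 19 at 56220731 to 56229810. The sham libraries held 606, 696 and 600 CPM and the BCP libraries 555, 533 and 513 CPM. Sham 2 was above the other sham libraries, and the BCP libraries were all below the lowest sham library. Tubb3 fell by 0.25 on the log2 scale (SE 0.054, adjusted p = 0.00208 in edgeR's quasi-likelihood test), the second largest fall after Nefm, and its call held under all 15 alternative settings. The same was true of Nefm, Nefh, Map1b and Map2.

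Of the growth cone genes, one fell and the other was not called. Stmn2, which encodes a stathmin that binds free tubulin, lies on chromosome 2 at 95424251 to 95472115, with 486, 513 and 483 CPM in the sham libraries, against 475, 423 and 401 CPM in BCP. BCP 1 was close to the sham libraries and BCP 3 well below them, which gave the largest spread within a group, a coefficient of variation of 8.71%. In FPKM the groups overlapped, at 230.9 in sham 3 and 231.1 in BCP 1. The log2 fold change was -0.19 (SE 0.054, adjusted p = 0.0143 in edgeR's quasi-likelihood test). This call held under 10 of 15 alternative settings. It was lost without sham 2 (adjusted p = 0.0796), without BCP 2 (0.0546) and without BCP 3 (0.0717), and also in the edgeR exact test (0.0664) and in limma on log2(FPKM + 1) (0.105).

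Gap43, the growth-associated protein of regenerating axons, lies on chromosome 11 at 58624198 to 58717914. Its level was 53.6, 58.0 and 56.9 CPM in the sham libraries, against 55.5, 52.7 and 55.0 CPM in BCP. The groups overlapped, and sham 1 was below 2 of the 3 BCP libraries. The log2 fold change of -0.05 had a 95% interval of -0.19 to 0.09 (adjusted p = 0.652 in edgeR's quasi-likelihood test), so that the interval took in a decrease as large as that of Nefl as well as small increases. Gap43 rested on 656 to 842 counts per library, the fewest of the 10 genes.

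Per transcript length, the order of the 10 genes was the same in all 6 libraries. In FPKM it ran from Nefl through Nefm, Nefh, Map1b, Tubb3, Stmn2, Map2, Ina and Mapt to Gap43. The mean in sham libraries was 1053 ± 40.3 FPKM for Nefl, 706 ± 13.6 for Nefm and 529 ± 14.1 for Nefh (SD, n = 3). Nefl thus ranked between place 17 and place 19 of all genes in the sham libraries. Map1b followed at 494 ± 12.5 FPKM and Tubb3 at 349 ± 30.5 FPKM. At the lower end stood Map2 at 147 ± 2.62 FPKM, Ina at 95.1 ± 3.85, Mapt at 88.6 ± 5.19 and Gap43 at 37.4 ± 1.65 FPKM. Over all libraries the ranges of neighbours overlapped for Nefh and Map1b and for Ina and Mapt, and the other neighbours were apart. Together the 10 genes took 1.71 to 1.78% of gene counts in sham libraries and 1.48 to 1.62% in BCP libraries. The BCP libraries kept an order as well: BCP 1 had the highest CPM of the 3 for 10 of 10 genes, and BCP 3 the lowest for 8. BCP 1 was also the highest in mean log2 CPM of the neuron, motor neuron, oligodendrocyte and astrocyte markers described below. It was not the highest for ganglion and root or microglia markers. The share of all tested genes with this order was not counted. Without BCP 1 the median log2 fold change of the 10 genes was -0.25.

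Other cytoskeleton genes of neurons and glia were taken from 7 lists. Of their 75 tested genes, 39 were called lower and 6 higher by the same test, and the median log2 fold change was -0.14. The shares over all tested genes were 12.1% lower and 15.8% higher. Among the 4143 genes with at least the mean log2 CPM of Gap43, they were 27.7% and 14.3%. Among 14 other microtubule-associated proteins and stathmins, 8 fell and 1 rose, with a median log2 fold change of -0.22. Tppp, a tubulin polymerization protein of oligodendrocytes, had a log2 fold change of -0.38, and Stmn4, Map1a, Stmn1 and Stmn3 had -0.31, -0.25, -0.24 and -0.24. The gene that rose was Mapre1, which encodes a protein of growing microtubule ends, with a log2 fold change of 0.31.

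All 14 axonal transport motor genes had negative log2 fold changes and 10 of them fell, with a median of -0.15. Negative log2 fold changes were found for 7792 of all 14908 tested genes, and 12.1% of all tested genes were called lower. Kif1a and Kif1b, which carry synaptic vesicle precursors and mitochondria, had log2 fold changes of -0.27 and -0.19, and Kif5a, a kinesin heavy chain involved in neurofilament transport, had -0.20. Of the 8 spectrin, adducin and ankyrin genes, 7 fell, with a median log2 fold change of -0.19. Ank3 and Sptbn4, which anchor channels at the axon initial segment and nodes of Ranvier, had -0.37 and -0.35. Of 11 genes for kinases and turnover of filament proteins and tau, 4 fell and none rose, with a median of -0.10, and Cdk5r1 and Cdk5r2, the activators of Cdk5, had -0.40 and -0.30.

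The other 3 lists held genes that moved in both directions. Their counts stand beside 12.1% lower and 15.8% higher over all tested genes. Among the 4143 genes with at least the mean log2 CPM of Gap43, 27.7% were lower and 14.3% higher. Of 7 other intermediate filament and linker genes, 3 fell and 2 rose, with a median log2 fold change of -0.05. Prph, peripherin of motor and sensory neurons, went from 160 to 181 CPM in sham libraries to 127 to 153 CPM in BCP libraries, a log2 fold change of -0.34 (adjusted p = 0.00226 in edgeR's quasi-likelihood test). The 2 that rose were Gfap, a filament gene of astrocytes, with a log2 fold change of 0.80, and Vim with 1.31. Which cells held the Vim transcripts was not measured. Of 12 tested rows for other tubulins, 4 fell and 2 rose, with a median of -0.01. Tuba1a had a log2 fold change of -0.24 and Tubb4a, the main beta-tubulin of oligodendrocytes, -0.36, while Tubb2a had -0.03 (adjusted p = 0.753). The largest rise was that of Tuba1c (2.70), which reached at most 2.4 CPM in any library and has a further row with no counts. Tubulin paralogs share long stretches of sequence, so their counts are uncertain. Of 9 growth cone genes, 3 fell and 1 rose, with a median log2 fold change of -0.10. Marcks rose by 0.74, Dpysl5 and Dbn1 fell with -0.53 and -0.23, and Basp1, a membrane protein of growth cones, had -0.23 without passing the test (adjusted p = 0.0916).

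**Figure D3:**
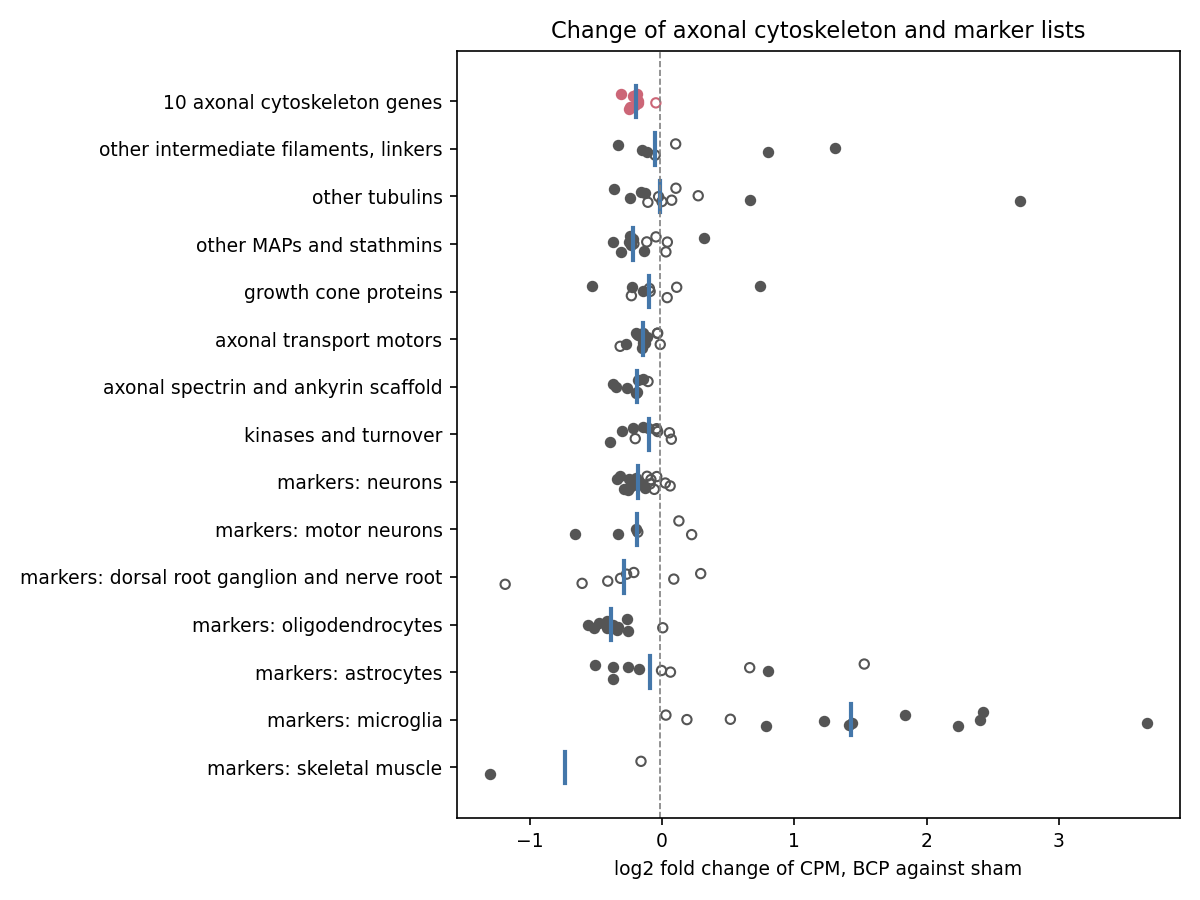
Log2 fold change of CPM in BCP against sham on the x axis for each tested gene of the lists on the y axis; filled points passed edgeR's quasi-likelihood test at an adjusted p under 0.05, open points did not, blue bars are list medians and the dashed line is the median of all tested genes. The 10 axonal cytoskeleton genes lie in a narrow range on the lower side, close to the neuron markers.

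Markers of cell types were examined beside these changes. Counts in the marker lists, here and below, stand beside 12.1% lower and 15.8% higher over all tested genes. Among the 4143 genes with at least the mean log2 CPM of Gap43, 27.7% were lower and 14.3% higher. Of 20 neuron markers, 12 fell and none rose, with a median log2 fold change of -0.18, and Thy1 and Slc32a1 had -0.29 and -0.32. Their summed level was 8923 to 9482 CPM in sham and 8044 to 8616 CPM in BCP libraries. Within each library the mean log2 CPM of the 10 axonal genes was then set against that of the 20 neuron markers. The contrast was 2.15, 2.17 and 2.11 in the sham libraries, against 2.15, 2.10 and 2.07 in BCP. The groups overlapped, with means of 2.14 ± 0.031 and 2.11 ± 0.037 (SD, n = 3 each; exact permutation test, two-sided, p = 0.2). With 3 libraries in each group the smallest possible p is 0.1, so this test could not have called a difference, and the difference of -0.04 was about the size of the SDs.

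Of 6 tested motor neuron markers, 3 fell and none rose, with a median log2 fold change of -0.19. Their summed level was 585 to 649 CPM in sham and 521 to 606 CPM in BCP libraries, and Calca and Prph had -0.66 and -0.34. Markers of dorsal root ganglion and nerve root, which could come with attached roots, summed to 88.0 to 101 CPM in sham and 68.7 to 84.6 CPM in BCP libraries. Of their 8 tested genes none was called in either direction by edgeR's quasi-likelihood test, and 2 had an unadjusted p under 0.05, Pmp22 (log2 fold change -0.21, adjusted p = 0.0594) and Avil (-0.61, adjusted p = 0.0707). Mrgprd had no count in any library and Scn10a reached at most 0.8 CPM.

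Among glial markers, those of oligodendrocytes and microglia moved most. Calls over all tested genes were 12.1% lower and 15.8% higher. Of 12 oligodendrocyte markers, 11 fell, with a median log2 fold change of -0.39 and a summed level of 40745 to 46208 CPM in sham against 29392 to 32643 CPM in BCP libraries. Ugt8, an enzyme of myelin lipid synthesis, had -0.51. Of 12 microglia markers, 9 rose, with a median of 1.43 and a summed level of 312 to 411 CPM against 972 to 1149 CPM, and Cd68 and Cx3cr1 had 3.66 and 1.42. Of 10 astrocyte markers, 5 fell and 1 rose, with a median of -0.09 and a summed level of 8428 to 8721 CPM against 9303 to 11461 CPM. Gfap alone was at 2163 to 2469 CPM in sham and 3729 to 4440 CPM in BCP libraries. The mean log2 CPM of the list overlapped between the groups. Slc1a2, the glutamate transporter, had -0.37 while Gfap rose. Of 2 tested skeletal muscle markers, Tnnc2 fell with a log2 fold change of -1.30 and Acta1 had -0.16 (adjusted p = 0.672), and the 7 muscle rows summed to 10.3 CPM or less in every library. The part of these shifts in cell type markers in the fall of the axonal genes was not tested.

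**Figure D4:**
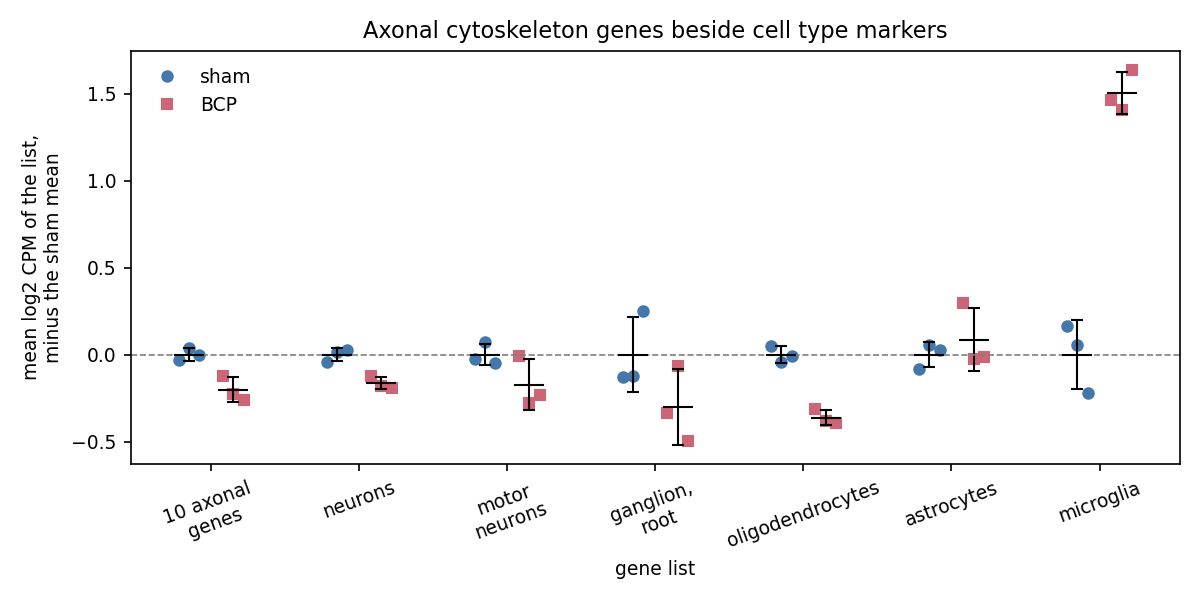
Mean log2 CPM of the tested genes of each list on the x axis, minus the list's mean over sham libraries, in each library; circles are the 3 sham libraries, squares the 3 BCP libraries, and black bars the mean ± SD. The axonal cytoskeleton genes and the neuron markers shift down by a similar amount (-0.20 and -0.16), oligodendrocyte markers by -0.36, and in microglia markers all BCP libraries lie above all sham libraries.

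Genes that neurons switch on after axon injury were looked at as well, since Gap43 and Stmn2 are often measured with them. Of 10 tested genes, 2 rose and none fell, with a median log2 fold change of 0.08, and over all tested genes 15.8% were called higher. Csf1 had a log2 fold change of 0.55 and Jun 0.18 (adjusted p = 0.0391 in edgeR's quasi-likelihood test). Atf3 was measured at 4.7, 4.1 and 1.8 CPM in sham and 4.4, 7.9 and 7.0 CPM in BCP libraries, and its log2 fold change of 0.89 did not pass the test (adjusted p = 0.0842). Sprr1a was represented by at most 0.1 CPM in 1 sham library and had no count elsewhere. The row of Npy, a neuropeptide gene that spinal cord neurons are known to express, held no count in any library, so whether this row measures Npy is in doubt and nothing was read from it.

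A second readout of the same loci came from the deposited table of long non-coding RNAs (lncRNAs), named here by their NONCODE transcripts. Within 10 kb of the 10 genes, or overlapping them, lay 15 lncRNAs at 9 genes, of which 10 could be tested. None was called in edgeR's quasi-likelihood test, adjusted over 12157 lncRNAs, against 0.395% of all tested lncRNAs called lower and 1.57% called higher. None was called by DESeq2 either, and 1 had an unadjusted p under 0.05. That lncRNA, NONRATT014385.2, lies on chromosome 19 at 56209745 to 56212885, 7846 bp from Tubb3. It counted 413, 500 and 515 reads in the sham libraries, against 281, 314 and 351 in BCP, all lower, with a log2 fold change of -0.45 (SE 0.094, adjusted p = 0.0602 in edgeR's quasi-likelihood test). Like Tubb3 it was lower in BCP, but it did not pass the threshold.

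The 2 lncRNAs with the most counts are given also, chosen after their values were seen. NONRATT030120.2 lies on chromosome 9 at 73461144 to 73462969, 1773 bp beyond the annotated end of Map2, with 6598, 7502 and 7914 counts in the sham libraries, against 6195, 6857 and 6705 in BCP. Its log2 fold change was -0.01 with a 95% interval of -0.09 to 0.07, which does not reach the -0.18 of Map2. NONRATT010105.2 starts at the same base as Nefh and ends at 85184332, inside the gene. It had a log2 fold change of -0.04 (adjusted p = 0.959), with an interval of -0.43 to 0.36 that takes in the value of Nefh. How the counting treated overlapping features and strand is not given in the sources used here, so reads of Nefh and this lncRNA cannot be told apart. Replicates of the lncRNA table spread more than those of the gene table, with a biological coefficient of variation of 33.4% against 7.72%.

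**Figure D5:**
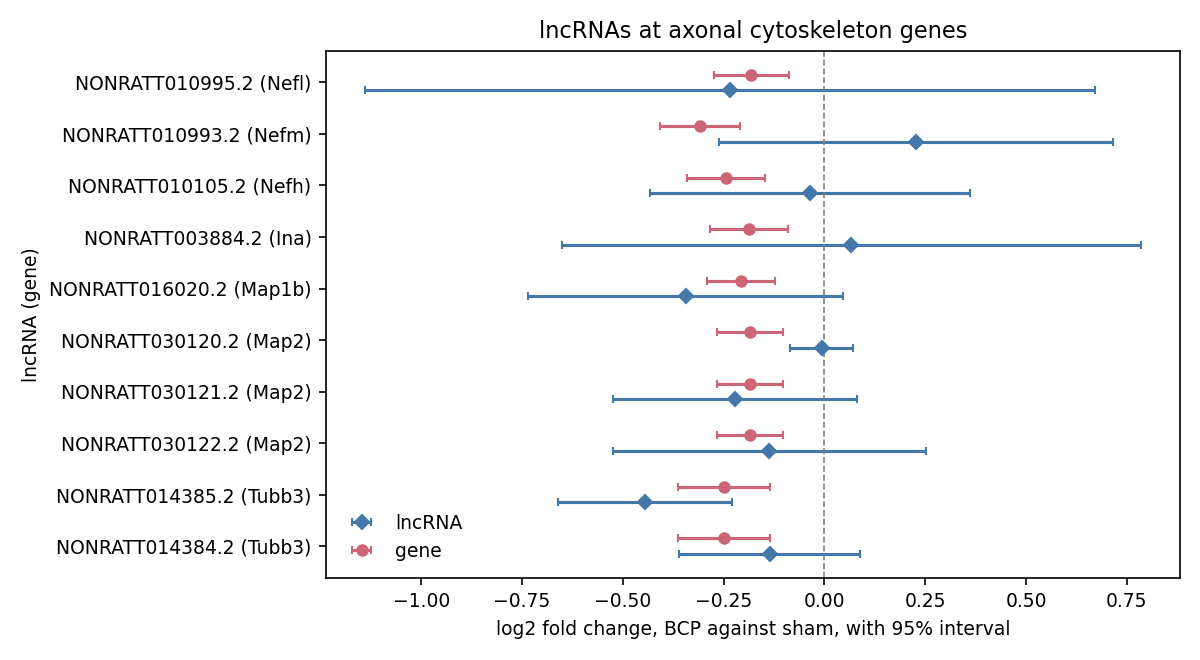
Log2 fold change in BCP against sham, with its 95% interval, for the 10 tested lncRNAs on the y axis (diamonds) and for the axonal cytoskeleton gene at the same locus (circles). The intervals of the genes shown lie below 0, and 9 of the 10 lncRNA intervals include 0.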

How the data were processed

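RNA of 6 spinal cord libraries had been depleted of ribosomal RNA and sequenced as stranded total RNA. The authors trimmed reads, aligned them with HISAT2 2.0.4 to Rnor_6.0 and computed FPKM with StringTie 1.3.0 (versions from the study's methods and the submitters' processing notes). The deposited tables give whole-number counts and FPKM per gene and per lncRNA. The counting tool and its use of strand are not given in the sources used here.

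The counts were tested with edgeR 4.0.16 (R 4.3.3; TMM, filterByExpr, robust quasi-likelihood fit, Benjamini-Hochberg over all tested features). Within-library ratios were tested with exact two-sided permutation. Alternatives were DESeq2 1.42.0, the edgeR exact test, limma 3.58.1 on log2(FPKM + 1), other filters and scalings, a replicate block, and leaving out each library. The scripts were tested on simulated data. Libraries of a group differed by more than sampling noise (chi-square per degree of freedom 3.48 to 6.04), at a depth of 11779485 to 15004290 counts.

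The 10 genes and the lists were chosen with earlier results of these data known. Named from each list were the 2 genes with the smallest p and Prph, Stmn1, Stmn3, Map1a, Basp1, Kif5a, Tubb2a, Tubb4a, Gfap, Vim, Atf3 and Sprr1a; of the lncRNAs, each with an unadjusted p under 0.05, otherwise the 2 with the most counts; and the 5 genes most correlated with the mean of Nefl, Nefm and Nefh. Mapre1, Dpysl5, Npy, Mrgprd and Scn10a are named outside this rule, after their values were seen. Nes, Slc18a3 and Myh4 were not analysed here, and 1 gene that the rule names among the oligodendrocyte markers is not reported here. Promoter sequences are from RefSeq on GRCr8, while gene coordinates are on Rnor_6.0, and none were converted.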

Additional observations from a re-analysis of the deposited data

How the results depend on the processing

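The 10 axonal genes had negative log2 fold changes under all 15 alternatives, and their median ranged from -0.25 (without BCP 1) to -0.16 (library size only). The number called lower was 9, and 8 to 9 when a library was left out, 7 in the edgeR exact test and 5 in limma on log2(FPKM + 1). Over all genes, limma called 975 lower, 626 higher past 2-fold and 0 lower past 2-fold. The count lower past 2-fold, 16 in the report, was 37 with no filter on low counts, 6 with at least 10 counts in every library, and 16 to 33 when a library was left out, with 25 without sham 2 and 33 without BCP 1. The difference in the log2 ratio of Ina to Nefl ranged from -0.043 to 0.041 when a library was left out, and it turned positive without sham 3 (0.041), BCP 1 (0.0024) or BCP 2 (0.0013). Uncalled lncRNAs also changed sign when a library was left out: NONRATT010995.2 ranged from -0.53 to 0.027, NONRATT010105.2 from -0.19 to 0.053, NONRATT003884.2 from -0.11 to 0.33 and NONRATT030120.2 from -0.045 to 0.0037. The cause of these changes was not tested.

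Same-numbered libraries did not deviate together (r = -0.105, 0.044 and -0.035 over 14908 genes). This check cannot exclude a pairing, and the labels state none. With a replicate block, 9 of the 10 genes were called lower, and over all genes 2217 were called higher and 1597 lower, beside 2352 and 1805 without it. With 3 libraries per group the ratio tests could not pass 0.05, and lncRNAs with few counts were measured too loosely to show a change of the size seen in the genes.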

Other observations

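The gene table carries the authors' annotation terms, and these were read after the table had been seen. Of 357 tested genes with the cellular component axon, 130 were called lower and 35 higher in edgeR's quasi-likelihood test, with a median log2 fold change of -0.12. Without the 6 of the 10 axonal genes that carry the term, 125 of 351 were lower and 35 higher. Genes of the growth cone (39 of 120 lower, 19 higher), the dendrite (126 of 413 lower, 44 higher) and the neuronal cell body (123 of 413 lower, 55 higher) had medians of -0.09, -0.12 and -0.11. Of 9 tested genes with the term neurofilament, 6 were lower and 1 higher, and without the 4 filament genes of the report 2 of 5 were lower and 1 higher. The wider term intermediate filament had 7 of 42 genes lower and 5 higher, with a median of -0.07, and without the same 4 genes 3 of 38 were lower and 5 higher. The term microtubule, which also covers the mitotic spindle and dividing cells, was near balance, with 64 of 250 genes lower, 54 higher and a median of -0.02. Genes of the myelin sheath were lower in 72 of 169 cases and higher in 16. These counts stand beside 12.1% lower and 15.8% higher over all tested genes. Among the 4143 genes with at least the mean log2 CPM of Gap43, 27.7% were lower and 14.3% higher.

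The genes whose CPM over the 6 libraries most resembled the mean of Nefl, Nefm and Nefh were Ube4b (Pearson r = 0.999), Adamts20 (0.996), Stmn3 (0.996), Lmod1 (0.995) and Arhgef4 (0.995), out of 14898 searched. They share the libraries and their depth with the filament genes, and 998 genes had an r above 0.9. Adamts20, a secreted metalloprotease, had 31.3 CPM in sham and 20.4 CPM in BCP rats on average, a log2 fold change of -0.62 (adjusted p = 0.000118). Ube4b, a ubiquitin ligase, had a log2 fold change of -0.12 (adjusted p = 0.0611).

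The lncRNA beyond the end of Map2 was compared with Map2 within each library, after its values had been seen. The counts of NONRATT030120.2 were 32.7, 33.7 and 33.7% of those of Map2 in sham, against 37.3, 36.8 and 36.8% in BCP. The ratio was higher in every BCP library, by 0.15 on the log2 scale (exact permutation test, two-sided, p = 0.1, the smallest possible, and 0.5 after adjustment over 10 such ratios).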
